A study of Mus musculus with 9 samples.

Results

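RNA from sorted proximal tubular cells was compared between 3 untreated diabetic *db/db* mice and 3 *db/m* mice. The comparison took 6 of the 9 mice of the series, chosen by their group label. All 15583 of 24421 listed genes that reached 0.3 CPM (counts relative to the scaled library size) in 2 or more mice of the series entered the test. *db/db* mice carry the leptin receptor mutation on both chromosomes and become obese and hyperglycemic, and *db/m* mice are heterozygous carriers of the same allele, so the controls are not wild-type animals. The mutant allele came from a BL6 (C57BL/6) line, and the paper does not give the background of the Cre and reporter lines. Both groups carried SLC34a1GCE, a tamoxifen-dependent Cre placed at the Slc34a1 gene, and the R26tdTomato reporter. Tamoxifen was given 5 times from 8 weeks of age, and the *db/db* group then received vehicle in drinking water for 8 weeks. Dissociated cortex was sorted for living tdTomato-positive cells, so the sort was for descendants of cells that used the Slc34a1 promoter when tamoxifen was given. Each library came from 1 mouse.

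The proximal tubule takes back most of the filtered glucose, amino acids, phosphate and protein, secretes organic anions and drugs, makes glucose and ammonia, and carries out the last step of vitamin D activation. Its S1 and S2 segments lie in the cortex and carry the high-capacity transporters, and the straight S3 segment reaches into the outer stripe of the medulla. In mice, many of its transporters and enzymes, above all in S3, differ between males and females and are set by androgens. It burns fatty acids rather than glucose.

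The libraries held 2733314 to 7635630 counts in the *db/db* and 4817670 to 6571539 in the *db/m* mice, and totals did not separate the groups (exact two-sided permutation test, p = 0.8, 3 against 3 mice, where the smallest possible p is 0.1). The correlation of log2(CPM + 1) across genes was 0.955 to 0.974 between *db/db* mice and 0.97 to 0.986 between *db/m* mice. Slc34a1 was at 3530, 3776 and 4151 CPM in *db/m* and at 6195, 4404 and 4731 CPM in *db/db* mice (log2 fold change 0.42 ± 0.18, SE; adjusted p = 0.346 by edgeR's quasi-likelihood test). Lepr, the mutated gene, had 3 counts in all in either group and could not check the labels. Y-linked genes were expressed in all the mice and Xist had at most 4 counts. Pan-proximal markers summed to 19930 to 20080 CPM in *db/m* and 18640 to 26160 CPM in *db/db* mice. Markers of other cells were present in both groups. Those of the thick ascending limb summed to 812.4 to 1667 CPM in *db/m* and 354.9 to 1101 CPM in *db/db* mice, those of the distal convoluted and connecting tubule to 337.6 to 943 and 444.2 to 757.2 CPM and those of the collecting duct to 236.6 to 728.7 and 277.9 to 487.7 CPM. Endothelial markers summed to 58.6 to 140.1 CPM in *db/m* and 72.3 to 208.7 CPM in *db/db* mice, and 0 of the 12 marker lists held a gene with no count in all 6 mice. In *db/db* mouse 2, 6 erythroid markers summed to 1467 CPM against 111 to 433.8 CPM in the others.

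Genes were taken as called where the adjusted p was below 0.1 and the log2 fold change passed 1 in size. The test called 194 genes (1.24% of those tested), 85 higher (0.545%) and 109 lower (0.699%) in *db/db* mice. In 193 of the 194 every mouse of one group lay above every mouse of the other, which held for 16.4% of all tested genes (8.28% higher in *db/db*, 8.13% lower). For a called gene, the lack of overlap given below therefore describes its values and adds no support to its call. Before adjustment, 13.7% of tested genes had a p under 0.05, and an adjusted p under 0.1 at any fold was reached by 1.67%. A log2 fold change above 0 was found for 51.6% of tested genes and one below 0 for 48.4%. The median log2 fold change of all tested genes was 0.02. The function lists with the highest shares of called members were androgen-responsive genes, female-enriched genes, cytochrome P450 enzymes and chaperones, whereas the citric acid cycle, gluconeogenesis and the respiratory chain had none. The lists were chosen with earlier results of these data known. Their shares, here and below, are therefore a description and no independent test against all genes.

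**Figure D1:**
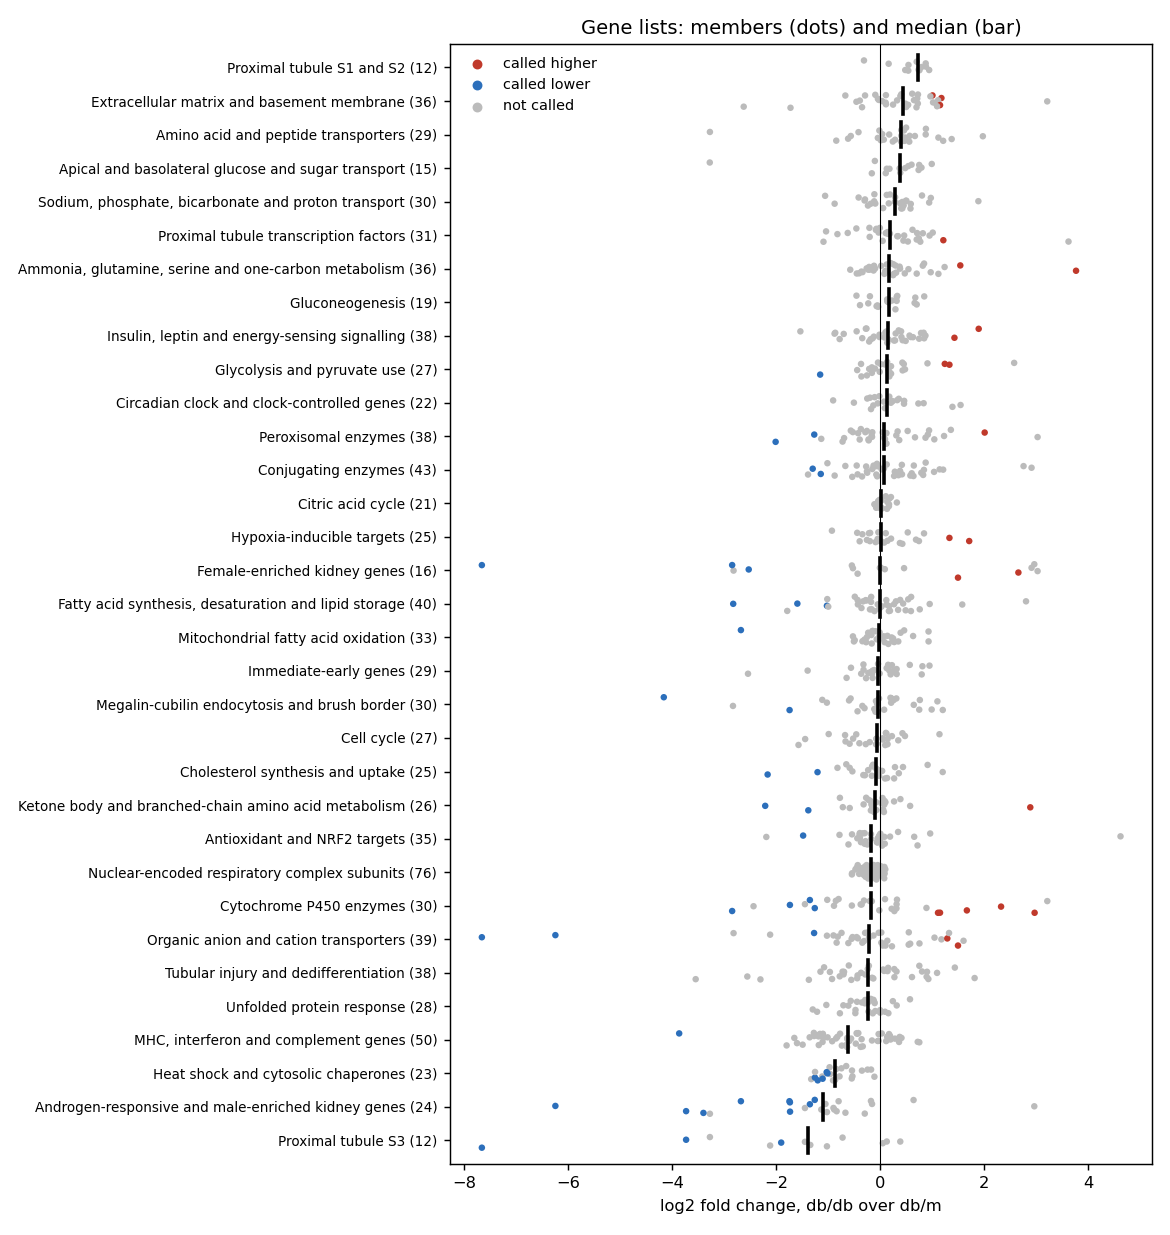
Members of the function lists and of the 2 segment marker lists by log2 fold change between *db/db* and *db/m* mice. Each dot is 1 gene, red where called higher, blue where called lower and grey where not called. The black bar is the median and the number of tested members stands in parentheses. The S3, androgen and chaperone lists lie at the bottom with medians of -1.40, -1.09 and -0.87.

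**Figure D2:**
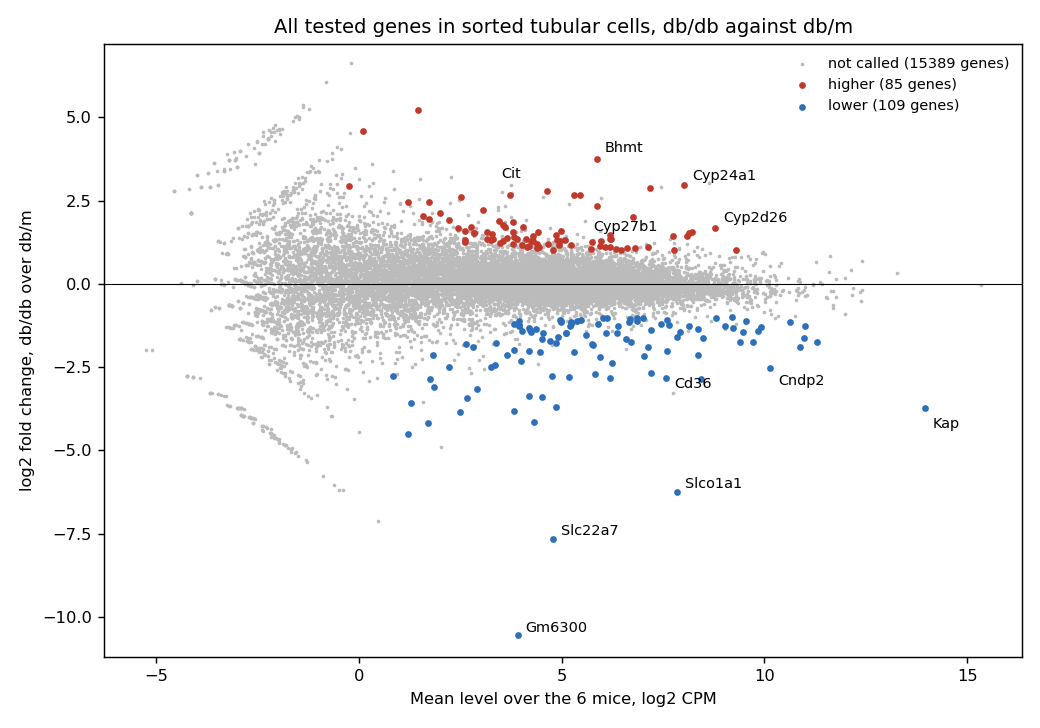
Mean level over the 6 mice (log2 CPM, horizontal) and log2 fold change (*db/db* over *db/m*, vertical) of the 15583 tested genes, red for the 85 called higher and blue for the 109 called lower. Slco1a1, Slc22a7 and Gm6300 are the lowest of the called genes, and Kap is the called gene farthest to the right. Fitted fold changes of genes with a group near 0, such as Gm6300, depend on the count added by the fit.

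Of the function lists, androgen-responsive and male-enriched genes had the largest share of members called lower. Of 24 tested members, 9 fell, 0 rose and 22 lay below 0, with a median log2 fold change of -1.09 and a range from -6.24 (Slco1a1) to 2.96 (Prlr). Kap, the kidney androgen-regulated protein, was at 35220, 23980 and 29000 CPM in *db/m* mice and at 1469, 2026 and 3145 CPM in *db/db* mice. It fell 13.3-fold (log2 fold change -3.73 ± 0.36, SE; adjusted p = 0.00117). The highest *db/db* mouse was far below the lowest *db/m* mouse, and the transcript took 2.39% to 3.4% of all counts in *db/m* and 0.158% to 0.326% in *db/db* mice.

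Slco1a1, an organic anion uptake carrier of the apical membrane, was at 428.5, 553.1 and 369.2 CPM in *db/m* and at 5.10, 3.001 and 8.97 CPM in *db/db* mice, 75.7-fold lower (log2 fold change -6.24 ± 0.76; adjusted p = 0.00461). Odc1, which starts polyamine synthesis, was at 1067, 1299 and 1520 CPM in *db/m* and at 385.4, 360.5 and 413 CPM in *db/db* mice (log2 fold change -1.75 ± 0.19; adjusted p = 0.00227). Hsd11b1, which regenerates active glucocorticoid, was at 34.5, 51.3 and 39.7 CPM in *db/m* and at 4.08, 4.80 and 3.16 CPM in *db/db* mice (log2 fold change -3.40 ± 0.28; adjusted p = 0.000681). In none of these 3 genes did a *db/db* mouse reach the level of any *db/m* mouse. The other members that fell were Cyp4b1, a P450 enzyme, by 1.74 on the log2 scale (adjusted p = 0.0106), Acsm3, a medium-chain acyl-CoA synthetase, by 2.68 (adjusted p = 0.03), Nudt19, which cleaves coenzyme A, by 1.73 (adjusted p = 0.0329), Cyp2j13 by 1.35 (adjusted p = 0.068) and Cyp2e1, which oxidises small solvents, by 1.26 (adjusted p = 0.0891).

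The number of members called lower was 5 to 16 when each of the 6 mice was left out in turn: 5 without *db/db* mouse 2, 6 without *db/m* mouse 1 and 6 without *db/m* mouse 3, against 16 without *db/db* mouse 3. Calls of Kap, Slco1a1, Odc1, Hsd11b1 and Cyp4b1 held without each mouse. These were the 5 called without *db/db* mouse 2, and with Acsm3 the 6 called without *db/m* mouse 1 or *db/m* mouse 3. Nudt19 was therefore not called in those fits. The call of Acsm3 was lost without *db/db* mouse 2 (adjusted p = 0.115). Those of Cyp2j13 and Cyp2e1 were lost without any 1 mouse other than *db/db* mouse 3. Acsm3 overlaps Eri2, on the other strand, which was also called (log2 fold change -2.71 ± 0.30; adjusted p = 0.00227), and Hsd11b1 overlaps Lamb3 on the other strand (log2 fold change -1.204, not called). The sources used here do not state whether counting used the strand.

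Genes enriched in female kidneys did not move as a group: of 16 tested, 2 rose and 3 fell, with a median of 0.00. Slc22a7, the organic anion transporter OAT2, was nearly lost in *db/db* mice. It was at 73.5, 48.3 and 42.9 CPM in *db/m* and at 0.34, 0.20 and 0.25 CPM in *db/db* mice, 937 counts against 4 counts in all. The ratio of the pooled levels was 224 (95% interval for counting error only, 87.2 to 824; adjusted p = 5.69e-06 by edgeR, the smallest of all genes). Cndp2, a cytosolic dipeptidase, was at 1693, 1610 and 2500 CPM in *db/m* and at 225.7, 361.5 and 417.7 CPM in *db/db* mice, a 5.77-fold decrease (adjusted p = 0.00165). Cyp2a4 fell by 2.85 on the log2 scale (adjusted p = 0.0511, and 0.13 to 0.182 without *db/m* mouse 1, *db/m* mouse 3 or *db/db* mouse 2). The members that rose were Kynu, kynureninase of tryptophan breakdown, from 14.02, 5.76 and 13.1 to 31.3, 77.0 and 96.4 CPM (adjusted p = 0.0258), and Slc22a29, by 1.49 on the log2 scale (adjusted p = 0.036). The call of Slc22a29 was lost without *db/m* mouse 2, *db/m* mouse 3 or *db/db* mouse 2 (adjusted p = 0.101 to 0.131).

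**Figure D3:**
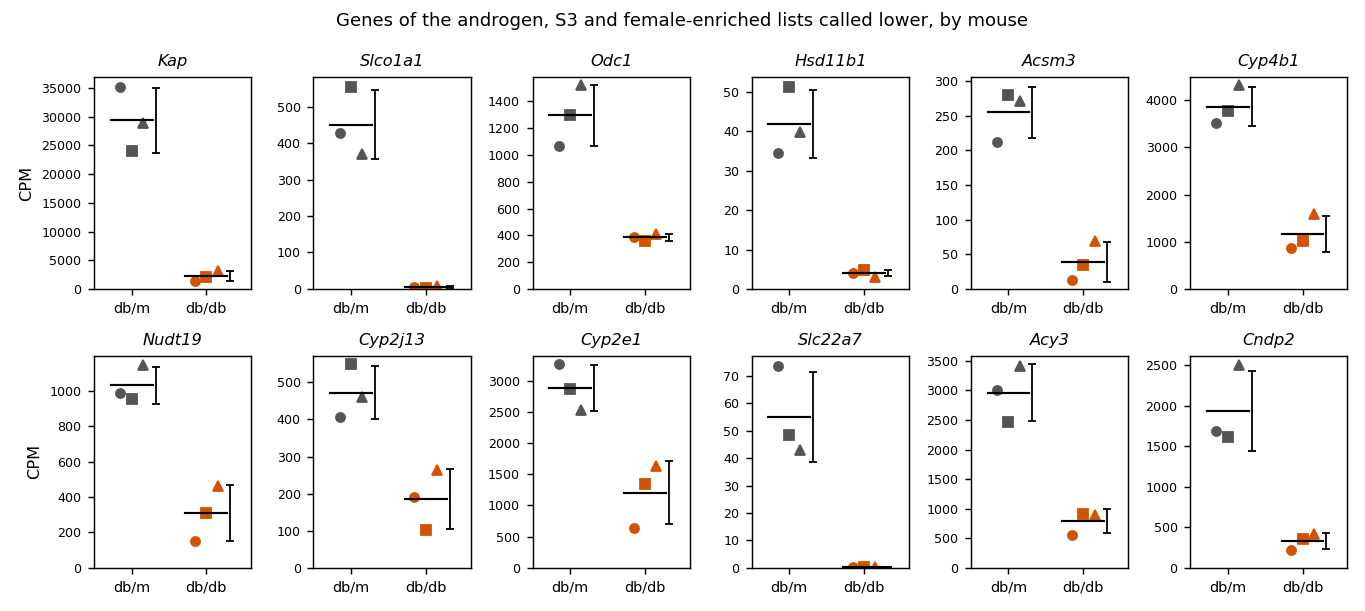
Level in each mouse (CPM, vertical axes from 0) of 12 genes called lower. Circles, squares and triangles are mice 1, 2 and 3 of a group, the horizontal line is the mean and the bar beside it the SD (n = 3). In each panel all *db/db* mice lie below all *db/m* mice, and Slco1a1 and Slc22a7 lie close to 0 in *db/db* mice.

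Of 12 markers of the S3 segment 3 fell (Slc22a7, Kap and Acy3), 9 were below 0 and the median was -1.40. Of 12 markers of S1 and S2, 0 were called, 11 lay above 0 and the median was 0.72. At an unadjusted p under 0.05, 7 of the S1 and S2 markers were higher and 0 lower, and limma-voom with mouse weights called 1 higher, whereas DESeq2 and limma called 0. Acy3, an aminoacylase of the brush border that trims acetylated amino acids, was at 3015, 2464 and 3412 CPM in *db/m* and at 558.1, 918 and 898.8 CPM in *db/db* mice (log2 fold change -1.90 ± 0.23; adjusted p = 0.00461).

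The summed level of the S3 markers was 32240 to 45030 CPM in *db/m* and 3729 to 9250 CPM in *db/db* mice (p = 0.1 in an exact permutation of the mice, the lowest value that 3 against 3 can give). Kap made up most of this sum, and without it the S3 markers summed to 9808, 8263 and 8371 CPM in *db/m* and to 2259, 3905 and 6104 CPM in *db/db* mice (exact permutation p = 0.1). The S1 and S2 markers summed to 7160, 8649 and 7191 CPM in *db/m* and to 10580, 9552 and 11710 CPM in *db/db* mice (exact permutation p = 0.1). Neither sum overlapped between the groups. Of the S3 markers, 4 (Kap, Slc7a13, Cyp7b1 and Slc22a30) stand also in the androgen list. Slc5a1, Slc22a13 and Slc5a8 had log2 fold changes of 0.38, 0.05 and 0.12. Slc7a13, the aspartate and cystine carrier of S3, was at 484.4, 375.5 and 310.4 CPM in *db/m* and at 9.52, 7.40 and 100.2 CPM in *db/db* mice and missed the threshold (adjusted p = 0.108), with *db/db* mouse 3 above the other two. Without that mouse 7 of the S3 markers were called lower. In sorted cells measured in bulk, fewer S3 cells and less RNA per S3 cell cannot be told apart.

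Of 23 tested genes of the heat shock and cytosolic chaperone list 5 fell and 0 rose. The list also holds the heat shock factor gene Hsf1 and the mitochondrial Hspd1 and Hspe1. All 23 had log2 fold changes below 0, with a median log2 fold change of -0.87 and a range from -1.33 (Hspb8) to -0.11 (Hsf1). The adjusted p was under 0.1 for 9 of the 23, against 0.879% of all tested genes lower at that p, and the 5 called are those of them that also passed the fold limit. Values did not overlap between the groups for 16 of the 23, all of them lower, against 8.13% of all genes.

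The 5 genes that fell encode co-chaperones of HSP70 and HSP90. Dnaja1, a J-protein that hands clients to HSP70, was at 1138, 1075 and 860.6 CPM in *db/m* and at 470.4, 529.2 and 426.8 CPM in *db/db* mice (log2 fold change -1.11 ± 0.20; adjusted p = 0.0313). Chordc1, an HSP90 partner, was at 100.8, 103.5 and 75.1 CPM in *db/m* and at 52.0, 44.6 and 42.2 CPM in *db/db* mice (log2 fold change -1.01 ± 0.17; adjusted p = 0.0239). Dnajb1 fell by 1.202 on the log2 scale (adjusted p = 0.0657), Bag3 by 1.26 (adjusted p = 0.0645) and Stip1, which joins HSP70 to HSP90, by 1.03 (adjusted p = 0.0719). Every *db/db* mouse was below every *db/m* mouse in these 5 genes.

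The chaperones they serve had smaller differences that did not reach the fold limit. Hsp90ab1, the constitutive HSP90, was at 2501, 2337 and 2028 CPM in *db/m* and at 1250, 1172 and 1072 CPM in *db/db* mice (log2 fold change -0.97 ± 0.20; adjusted p = 0.045). Hspa8, the constitutive HSP70, was at 5524, 5317 and 5080 CPM in *db/m* and at 2924, 3252 and 2308 CPM in *db/db* mice (log2 fold change -0.91 ± 0.20; adjusted p = 0.0657). The inducible HSP70 genes differed less. Hspa1a (log2 fold change -0.54) and Hspa1b (-0.75), near-identical copies whose reads can be divided between them, overlapped between the groups.

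These calls rested on few mice. Without *db/m* mouse 1, 0 chaperone genes were called, without *db/m* mouse 2 it was 1, without *db/db* mouse 2 it was 2 and without *db/db* mouse 3 it was 3, while 22 or 23 members stayed below 0 in each of the 6 fits without 1 mouse, with a median of -0.79 to -0.99. Of 29 immediate-early genes, which respond within minutes to handling of tissue, 0 were called by edgeR (0 higher and 3 lower at an unadjusted p under 0.05) and the median was -0.04. DESeq2 called 2 of them lower. The 28 genes of the unfolded protein response of the endoplasmic reticulum had a median of -0.23, and 0 were called by edgeR, DESeq2 or limma (0 higher and 2 lower at an unadjusted p under 0.05).

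Promoters were searched for the heat shock element, the binding sequence of the heat shock factor HSF1, because the chaperone genes moved together. The motif searched was 3 alternating blocks, GAA, TTC and GAA, with 2 free bases between blocks, on either strand. It was found in 4 of the 18 members with a promoter in RefSeq (22.2%) and in 0.604% of the promoters of tested genes, in a window from 250 bases before to 50 bases after the start of transcription (GRCm38.p6). The sites of Chordc1, Hsph1 and Hspd1 are shown with the matched bases in capitals, 5′ to 3′ on the strand of the gene. For Hspd1 the 150 bases before the start are given.

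Chordc1: ccgGAACGTTCGGGAAAATTCCTGAAgca
Hsph1: agaTTCTGGAAAGTTCt
Hspd1: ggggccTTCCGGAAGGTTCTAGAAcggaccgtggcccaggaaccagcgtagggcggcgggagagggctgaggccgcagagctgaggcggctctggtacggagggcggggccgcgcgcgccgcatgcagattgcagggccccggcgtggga

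The stretch of Chordc1 lies at chr9:18292260-18292288 on the plus strand and spans the start, with 3 overlapping matches. That of Hsph1 lies at chr5:149636287-149636303 on the minus strand, within the first transcribed bases. That of Hspd1 lies at chr1:55087933-55088082 on the minus strand, and its 2 overlapping matches are the same bases that lie 72 to 89 bases before the start of Hspe1, the neighbour transcribed the other way. Hspd1 and Hspe1 encode the mitochondrial chaperonin pair. Hspd1 was at 1065, 1001 and 768 CPM in *db/m* and at 562.5, 735.1 and 658.4 CPM in *db/db* mice, without overlap but not called (adjusted p = 0.232), and Hspe1 at 415.6, 387 and 430.1 against 253.9, 312.9 and 150.4 CPM (adjusted p = 0.238). Of the 4 chaperone genes with a match only Chordc1 was called, and of 73 promoters of genes called lower 1 (1.37%) held the motif. A match is a letter match and not a shown binding site. The hormone response element was searched as GNACA and TGTNC with 3 free bases between them (its own reverse complement). It was found in 0 of 19 promoters of the androgen list and in 0.432% of the promoters of tested genes. Among called genes it was found in 2 of 68 promoters of those higher (2.94%) and 0 of 73 of those lower. With so rare a motif, 0 of 19 cannot tell the androgen list from other genes.

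**Figure D4:**
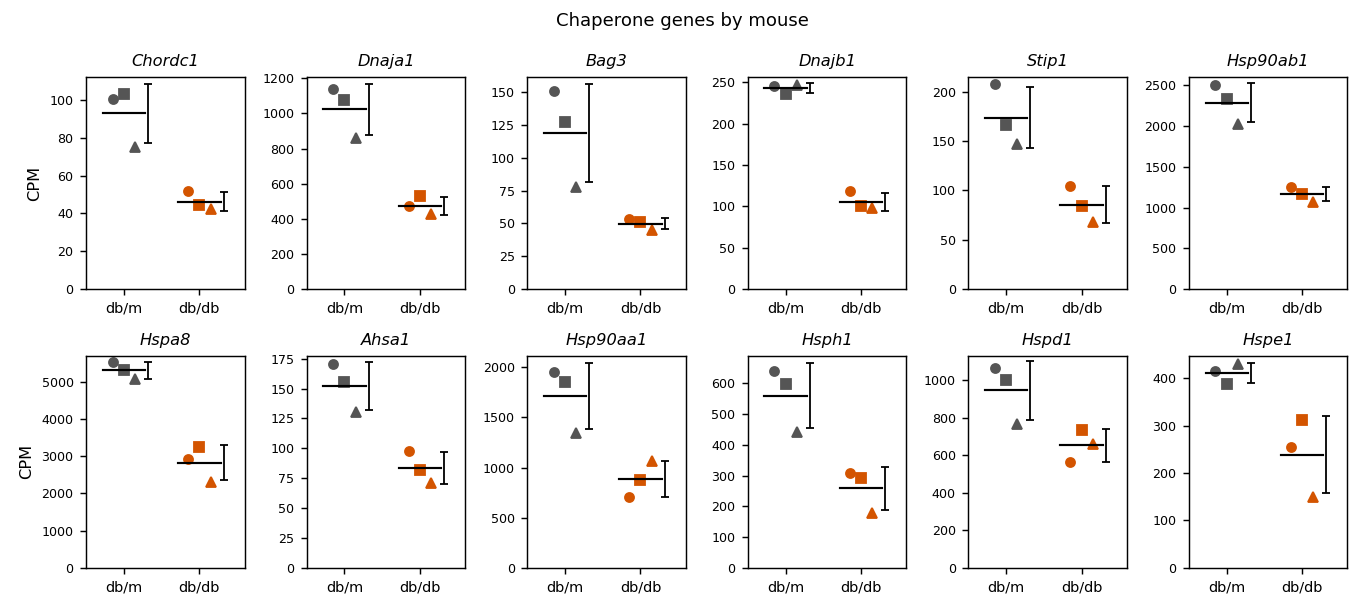
Level in each mouse (CPM, vertical axes from 0) of 12 chaperone genes, with mice 1, 2 and 3 as circles, squares and triangles, the mean as a line and the SD as a bar (n = 3). In all 12 panels the *db/db* mice lie below the *db/m* mice. Chordc1, Dnaja1, Bag3, Dnajb1 and Stip1 were called.

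Cyp27b1 and Cyp24a1, which make and break down the active form of vitamin D, both rose. Cyp27b1, the 1α-hydroxylase that makes the active hormone, was at 13.5, 30.2 and 14.9 CPM in *db/m* and at 108.8, 94.2 and 90.9 CPM in *db/db* mice (log2 fold change 2.32 ± 0.37; adjusted p = 0.0147). Cyp24a1, the 24-hydroxylase that breaks it down, was at 71.2, 85.8 and 17.3 CPM in *db/m* and at 645.8, 336.9 and 386 CPM in *db/db* mice, 7.81-fold higher (log2 fold change 2.97 ± 0.48; adjusted p = 0.0182). The lowest *db/db* mouse was above the highest *db/m* mouse for both, and both calls held without each mouse.

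Cytochrome P450 enzymes were divided, with 5 of 30 members higher, 4 lower and a median of -0.18. Besides Cyp27b1 and Cyp24a1, Cyp2d26 rose from 197.8, 179.4 and 256.7 to 768.1, 606.2 and 633.5 CPM (3.17-fold; adjusted p = 0.0051) and Cyp2d22 by 1.11 on the log2 scale (adjusted p = 0.0132). Cyp2c44, an epoxygenase of arachidonic acid, rose by 1.15 (adjusted p = 0.0962). The 4 that fell, Cyp4b1, Cyp2a4, Cyp2j13 and Cyp2e1, are also members of the sex-dependent lists. Cyp4b1 was at 3521, 3764 and 4314 CPM in *db/m* and at 867, 1018 and 1595 CPM in *db/db* mice. The number called lower was 1 without *db/m* mouse 1, *db/m* mouse 3 or *db/db* mouse 2, 2 without *db/m* mouse 2 or *db/db* mouse 1, and 6 without *db/db* mouse 3. Cyp2j13 and Cyp4b1 lie on chromosome 4 within 20 Mb of Lepr, where 4 of 241 tested genes (1.66%) were called.

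Among organic ion transporters 2 of 39 rose and 3 fell, with a median of -0.22. Next to Slc22a7 and Slco1a1, Slc17a3, a urate and organic anion exporter of the apical membrane, fell from 664.4, 675.4 and 861.5 to 231.8, 267.3 and 411.4 CPM (adjusted p = 0.0319). Abcc4, the apical pump MRP4, rose from 32.3, 49.4 and 26.9 to 72.1, 78.0 and 114.6 CPM (adjusted p = 0.0412), as did Slc22a29. The call of Slc17a3 was lost without *db/m* mouse 1, *db/m* mouse 3 or *db/db* mouse 2 (adjusted p = 0.101 to 0.113), and that of Abcc4 without *db/m* mouse 1 or 3 (adjusted p = 0.208 and 0.143). Of 43 conjugating enzymes 2 fell: Keg1, a glycine acyltransferase homologue, by 1.14 on the log2 scale (adjusted p = 0.0125), and Ugt2b38, a glucuronosyltransferase, by 1.30 (adjusted p = 0.0257, and 0.101 without *db/m* mouse 1).

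Of 26 genes of ketone body and branched-chain amino acid metabolism 2 fell, Bdh1 and Aacs, 1 rose and the median was -0.10. Bdh1, which interconverts acetoacetate and β-hydroxybutyrate, was at 122.8, 83.2 and 100.1 CPM in *db/m* and at 14.6, 18.0 and 32.1 CPM in *db/db* mice (log2 fold change -2.21 ± 0.33; adjusted p = 0.0132). Aacs, which turns acetoacetate to lipid synthesis in the cytosol, fell by 1.38 on the log2 scale (adjusted p = 0.0856). Oxct1, the enzyme that commits ketone bodies to oxidation, was at 1446, 1556 and 1248 CPM in *db/m* and at 1024, 737.7 and 721.4 CPM in *db/db* mice and did not reach the fold limit (log2 fold change -0.78 ± 0.19; adjusted p = 0.0982). The call of Aacs was lost without any 1 *db/m* mouse or *db/db* mouse 2 (adjusted p = 0.139 to 0.249), whereas that of Bdh1 held without each mouse.

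Of 40 tested genes of fatty acid synthesis, desaturation and lipid storage 3 fell, 0 rose and the median was 0.00. Cd36, the fatty acid translocase, was at 318.9, 420.5 and 260.7 CPM in *db/m* and at 23.8, 26.6 and 88.2 CPM in *db/db* mice, 7.09-fold lower (log2 fold change -2.83 ± 0.48; adjusted p = 0.0234). Lpl, lipoprotein lipase, was at 393.4, 317.5 and 317.1 against 81.9, 88.8 and 168.5 CPM (log2 fold change -1.59 ± 0.28; adjusted p = 0.0258). Me1, the cytosolic malic enzyme that supplies NADPH, fell by 1.03 on the log2 scale (adjusted p = 0.0307). No *db/db* mouse reached the *db/m* range in these 3 genes. The Lpl call was lost without *db/m* mouse 1 or *db/db* mouse 2 (adjusted p = 0.121 and 0.104), and the Me1 call without *db/m* mouse 1 (adjusted p = 0.124) or, on the fold limit, without *db/m* mouse 2 or *db/db* mouse 1 (log2 fold change -0.999 and -0.87).

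In cholesterol synthesis 2 of 25 fell and 0 rose, with a median of -0.08. Cyp51, lanosterol demethylase, was at 264.3, 163.5 and 209.2 CPM in *db/m* and at 27.5, 44.6 and 68.2 CPM in *db/db* mice, 4.48-fold lower (adjusted p = 0.00884). Idi1, isopentenyl diphosphate isomerase, fell by 1.21 on the log2 scale (adjusted p = 0.0586, and 0.131 to 0.152 without *db/m* mouse 1, *db/m* mouse 2, *db/db* mouse 1 or *db/db* mouse 2). The other 23 genes of the list did not pass the test. In peroxisomes Hacl1, which removes 1 carbon from branched and hydroxylated fatty acids, rose 4.02-fold, from 37.95, 48.5 and 43.5 to 93.1, 172.7 and 254.2 CPM (adjusted p = 0.04). Agps, of ether lipid synthesis, fell 4.03-fold, from 314.6, 325.2 and 288.2 to 38.4, 60.2 and 129.3 CPM (adjusted p = 0.0239). Amacr, the racemase of branched-chain fatty acid oxidation, fell by 1.27 on the log2 scale (adjusted p = 0.0133). The call of Hacl1 was lost without any 1 *db/m* mouse or *db/db* mouse 2 (adjusted p = 0.104 to 0.204), that of Agps without *db/db* mouse 2 (adjusted p = 0.104), and that of Amacr held without each mouse. Of 33 genes of mitochondrial fatty acid oxidation only Acsm3 was called, and their median was -0.02. Its adjusted p was 0.03 with all mice and 0.115 without *db/db* mouse 2.

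Gldc, Bhmt and Ftcd, enzymes of glycine, methyl group and folate metabolism, rose. Gldc, the decarboxylase of the glycine cleavage system, was at 136.4, 178.7 and 121 CPM in *db/m* and at 341.6, 418.2 and 505.7 CPM in *db/db* mice, 2.90-fold higher (adjusted p = 0.00884). Bhmt, which remethylates homocysteine from betaine, was at 12.0, 7.15 and 4.66 CPM in *db/m* and at 24.5, 125.2 and 175.8 CPM in *db/db* mice (log2 fold change 3.76 ± 0.61; adjusted p = 0.0172), with *db/db* mouse 1 nearest to the controls. Shmt1, of the folate cycle, and Oat, ornithine aminotransferase, had log2 fold changes of 0.97 and 0.84 (adjusted p = 0.0672 and 0.0352) and did not reach the fold limit. Of 36 tested members of the list of ammonia, glutamine, serine and one-carbon metabolism 2 rose, 0 fell and the median was 0.17. Ftcd, which breaks down histidine and feeds the folate pool, is outside the list and rose from 42.4, 32.8 and 42.4 to 82.6, 97.4 and 141.5 CPM (adjusted p = 0.0127). The calls of Gldc, Bhmt and Ftcd held without each mouse.

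Pyruvate dehydrogenase kinases, which close the entry of pyruvate to the citric acid cycle, changed in opposite directions. Pdk1 was at 17.2, 16.2 and 24.7 CPM in *db/m* and at 41.1, 48.4 and 55.1 CPM in *db/db* mice (log2 fold change 1.33 ± 0.20; adjusted p = 0.0132). Pdk3 was at 40.6, 46.8 and 43.5 CPM in *db/m* and at 18.7, 18.2 and 21.6 CPM in *db/db* mice (log2 fold change -1.16 ± 0.16; adjusted p = 0.00884). Pklr, the liver-type pyruvate kinase, rose by 1.24 on the log2 scale (adjusted p = 0.0583). Its call was lost without *db/m* mouse 1, *db/m* mouse 3 or *db/db* mouse 2 (adjusted p = 0.11 to 0.258) and, on the fold limit, without *db/db* mouse 3 (log2 fold change 0.99). The other 24 tested genes of glycolysis and pyruvate use did not pass the test. Of 25 hypoxia-inducible targets 2 rose, Pdk1 and Egln3, a prolyl hydroxylase that marks HIF for degradation (log2 fold change 1.71 ± 0.34; adjusted p = 0.0427). The median of the list was 0.015 against 0.02 for all genes. The call of Egln3 was lost without *db/m* mouse 2, *db/m* mouse 3 or *db/db* mouse 2 (adjusted p = 0.11 to 0.147).

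**Figure D5:**
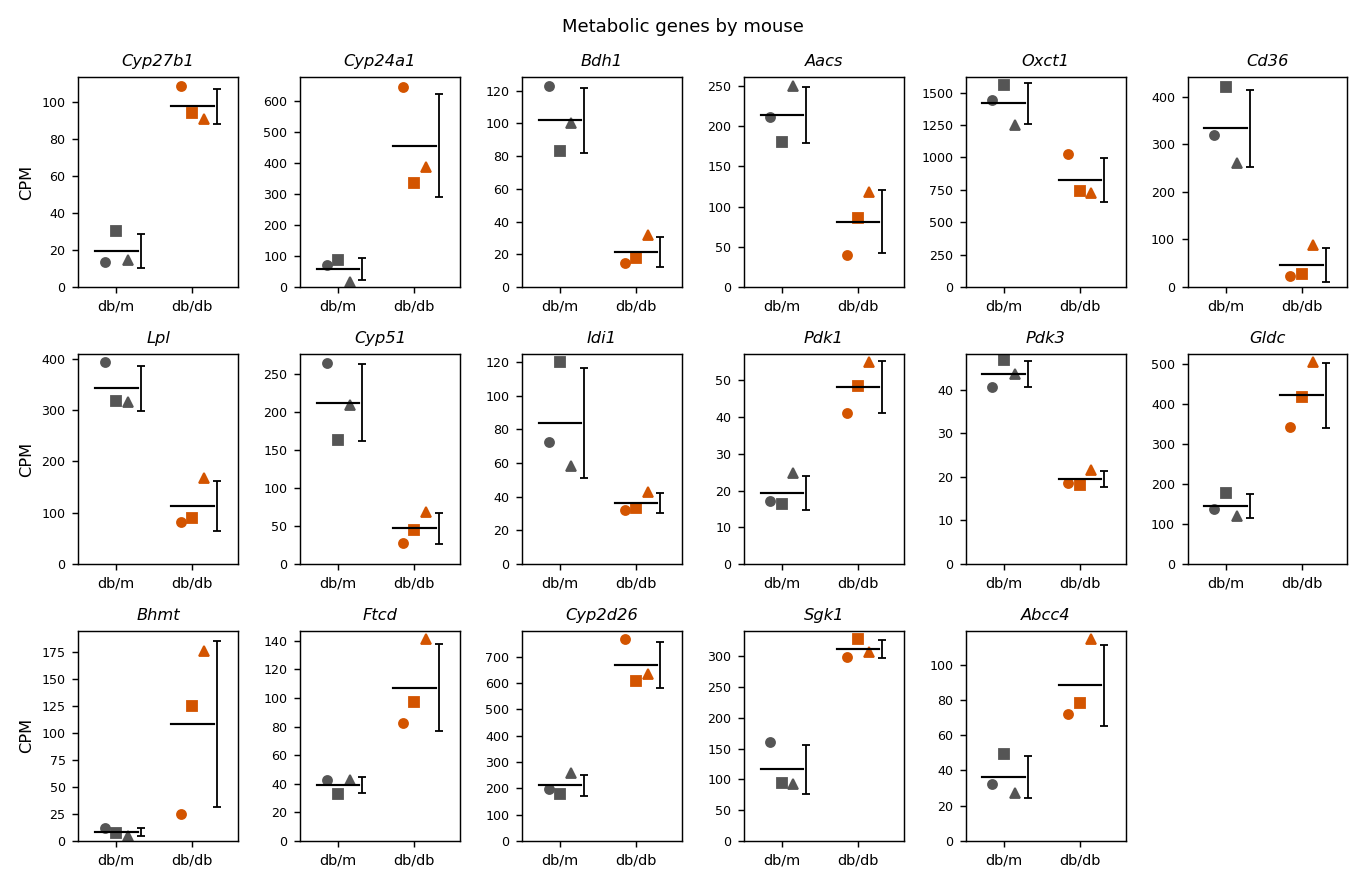
Level in each mouse (CPM, vertical axes from 0) of 17 genes of vitamin D, ketone body, lipid, pyruvate, one-carbon and transport functions, with mice 1, 2 and 3 as circles, squares and triangles, the mean as a line and the SD as a bar (n = 3). The groups do not overlap in any panel, and *db/db* mouse 1 is the lowest of its group for Bhmt.

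Central energy and reabsorption pathways showed few calls. Of 76 nuclear genes of the respiratory complexes 0 were called by edgeR, DESeq2 or limma (0 higher and 1 lower at an unadjusted p under 0.05), 70 lay below 0 and the median was -0.17. This direction depended on single mice, since the median was 0.025 without *db/m* mouse 3 and 0.022 without *db/db* mouse 3, and limma-voom with mouse weights gave 0.05. In *db/m* mouse 3 and *db/db* mouse 3 long and short transcripts were also displaced in opposite directions, as given with the matrix genes below. Of 21 citric acid cycle genes 0 were called by edgeR, DESeq2 or limma (0 at an unadjusted p under 0.05) and log2 fold changes spanned -0.11 to 0.32. Of 19 genes of gluconeogenesis 0 were called by any of the 3 tools and 2 were higher at an unadjusted p under 0.05. G6pc, the glucose-6-phosphatase, was at 364.7, 271.5 and 370.6 CPM in *db/m* and at 546.9, 435.2 and 824.8 CPM in *db/db* mice, without overlap but not called (adjusted p = 0.205). Pck1, which makes phosphoenolpyruvate, overlapped between the groups (log2 fold change 0.67; adjusted p = 0.394).

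Of 15 sugar transporters 0 were called by edgeR, DESeq2 or limma, 12 lay above 0, 6 were higher and 0 lower at an unadjusted p under 0.05 and the median was 0.38. Slc5a2, which encodes SGLT2, was at 741.4, 942 and 1057 CPM in *db/m* and at 2124, 1098 and 759.6 CPM in *db/db* mice. These ranges overlapped and the difference was within the spread (log2 fold change 0.54 ± 0.34; adjusted p = 0.519). Slc2a2, the basolateral GLUT2, was at 196.5, 266.9 and 139 against 327.6, 273.5 and 402.7 CPM, without overlap but not called (adjusted p = 0.23). Of 29 amino acid and peptide transporters 22 lay above 0 and the median was 0.40, but without *db/db* mouse 3 it was 0.00. None was called by edgeR (7 higher and 1 lower at an unadjusted p under 0.05), while DESeq2 called 1 higher and 1 lower and limma 1 lower. Of 30 genes of sodium, phosphate, bicarbonate and proton transport 0 were called by edgeR (6 higher and 2 lower at an unadjusted p under 0.05), DESeq2 called 1 higher, and the median of 0.28 was 0.03 without *db/db* mouse 3.

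In the brush border and endocytic list 2 of 30 fell and the median was -0.05. Mep1b, the meprin β protease, was at 47.6, 19.2 and 46.9 CPM in *db/m* and at 0, 0.80 and 4.29 CPM in *db/db* mice (log2 fold change -4.16 ± 0.71; adjusted p = 0.0228, and 0.101 without *db/m* mouse 1). Ace, angiotensin-converting enzyme, was at 155.9, 158.6 and 171 CPM in *db/m* and at 19.4, 38.01 and 85 CPM in *db/db* mice (adjusted p = 0.0811). The groups did not overlap, but the call of Ace was lost without any 1 *db/m* mouse or *db/db* mouse 2 (adjusted p = 0.167 to 0.23). Of the signalling list 2 of 38 rose. Sgk1, the kinase that raises sodium transport, was at 161.3, 94.2 and 92.6 CPM in *db/m* and at 299.4, 328.7 and 307.3 CPM in *db/db* mice (adjusted p = 0.0239) and its call held without each mouse. Igfbp1 rose by 1.89 on the log2 scale (adjusted p = 0.0762, and 0.133 to 0.258 without *db/m* mouse 1, *db/m* mouse 3, *db/db* mouse 2 or *db/db* mouse 3). Among transcription factors of the proximal tubule Nr1i2, the pregnane X receptor, rose by 1.21 (adjusted p = 0.0655). Its call was lost without *db/m* mouse 1, *db/m* mouse 2, *db/db* mouse 1 or *db/db* mouse 2 (adjusted p = 0.105 to 0.227).

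Of 36 tested matrix and basement membrane genes 3 rose, 0 fell and the median was 0.44. Col4a5 and Lama5, of the basement membrane, rose by 1.17 and 1.003 on the log2 scale (adjusted p = 0.0427 and 0.0345) and Nid2 by 1.15 (adjusted p = 0.0991). Long and short transcripts were displaced in opposite directions in *db/db* mouse 3 and *db/m* mouse 3: the median deviation of the longest transcripts (over 6603 bases) from the mean of the 6 mice was 0.416 on the log2 scale in *db/db* mouse 3, -0.255 in *db/m* mouse 3 and -0.137 to 0.012 in the other 4, and that of the shortest transcripts (up to 1232 bases) was -0.37 in *db/db* mouse 3, 0.242 in *db/m* mouse 3 and -0.084 to 0.116 in the other 4. Genes called higher had a median transcript length of 4661 bases, those called lower 2338 and all tested genes 3201. With transcript length corrected, the calls of Lama5 and Col4a5 were lost (log2 fold change 0.64 and 0.96), the median of the matrix list was 0.22 and 1 member was called. Without *db/m* mouse 1 no matrix gene was called (0 of 36), and each of the 3 calls was lost without at least 1 other mouse: Col4a5 without *db/m* mouse 3 (adjusted p = 0.128), Lama5 without *db/m* mouse 2 (adjusted p = 0.128) or, on the fold limit, *db/db* mouse 1 (log2 fold change 0.84), and Nid2 without any 1 mouse other than *db/db* mouse 1 (adjusted p = 0.149 to 0.272). Fibroblast and mural cell markers summed to 21.98 to 26.3 CPM in *db/m* and 10.7 to 22.8 CPM in *db/db* mice.

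Immune and injury genes did not rise. Of 50 genes of the MHC, interferon and complement list 1 fell, 0 rose, 38 lay below 0 and the median was -0.61. It was -0.30 without *db/m* mouse 1 and -0.30 without *db/db* mouse 3. Macrophage and dendritic cell markers summed to 232.5 to 561.9 CPM in *db/m* and 145.2 to 450 CPM in *db/db* mice, with overlap. Of these 11 markers 8 lay above 0, 3 below and 0 were called, and their median log2 fold change was 0.455. The part of these cells in the median of -0.61 was not tested. Cd55, which protects cells from complement, was at 13.9, 8.20 and 9.77 CPM in *db/m* and at 0.34, 0.40 and 1.14 CPM in *db/db* mice (log2 fold change -3.86 ± 0.51; adjusted p = 0.00744), a call that held without each mouse. Of 38 genes of tubular injury and dedifferentiation 0 were called by edgeR (3 higher and 6 lower at an unadjusted p under 0.05), DESeq2 called 3 lower and limma with a pseudocount of 1 called 1 lower, and the median was -0.23. Of 35 antioxidant and NRF2 targets 1 fell, Akr1b3, aldose reductase of the polyol pathway, from 51.3, 37.7 and 62.6 to 17.0, 20.6 and 16.6 CPM (adjusted p = 0.0132). Gm6644 is listed with identical values, so this pair was not told apart. Txnip, a glucose-responsive gene, had a log2 fold change of 0.96 (adjusted p = 0.046) and did not reach the fold limit. Of 22 clock genes and of 27 cell cycle genes 0 were called by edgeR (3 higher and 1 lower, and 0 higher and 1 lower, at an unadjusted p under 0.05), DESeq2 called 1 clock gene higher and 1 cell cycle gene lower, and limma with a pseudocount of 1 called 1 cell cycle gene lower.

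Some of the genes with the smallest p-values stand outside the lists. Hsd17b11, a dehydrogenase of lipid droplets, was at 512.6, 590.1 and 493.8 CPM in *db/m* and at 118.3, 105.6 and 140.1 CPM in *db/db* mice (adjusted p = 0.000703). Cpe, a prohormone carboxypeptidase, was at 51.0, 38.4 and 70.8 against 5.10, 4.80 and 2.78 CPM (adjusted p = 0.00123). Gm6300 was at 32.1, 32.3 and 25.8 CPM in *db/m* mice and had no count in any *db/db* mouse, at least 29.5-fold lower when each *db/db* library is allowed 3 counts. The others that fell were Fmo5, a flavin monooxygenase, by 2.06 on the log2 scale (adjusted p = 0.00227), Kif20b, a mitotic kinesin, by 3.15 (adjusted p = 0.00227), Mfsd2a, a lysophospholipid carrier, by 3.82 (adjusted p = 0.0051) and Nt5dc2 by 2.05 (adjusted p = 0.0051).

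Of those that rose, Cit, the citron kinase of cytokinesis, was at 3.78, 4.19 and 2.66 CPM in *db/m* and at 19.4, 23.01 and 26.0 CPM in *db/db* mice (log2 fold change 2.67 ± 0.27; adjusted p = 0.00123). Fgg, a fibrinogen chain, was at 6.46, 4.71 and 4.88 against 12.9, 24.6 and 16.7 CPM (adjusted p = 0.0138). Camk1g, a calmodulin-dependent kinase, rose by 2.23 on the log2 scale (adjusted p = 0.00884), Plcg1, phospholipase C gamma, by 1.30 (adjusted p = 0.0106), Acnat1, a peroxisomal acyltransferase, by 1.35 (adjusted p = 0.0127), Adgra3, an adhesion receptor, by 1.43 (adjusted p = 0.0127), Nav2 by 1.32 (adjusted p = 0.0132) and Chd7, a chromatin remodeller, by 1.41 (adjusted p = 0.0132). All of these calls held without each mouse. With transcript length corrected that of Nav2 was lost on the fold limit (log2 fold change 0.94).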

How the data were processed

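Polyadenylated RNA was sequenced from sorted tdTomato-positive cells of 9 mice, 3 per group. The authors mapped single-end reads to mm10 with TopHat2 2.0.13 and Bowtie2 2.2.3 and ran SAMtools 0.1.19 and Cufflinks 2.2.1. The deposited table carries the name FPKM, yet it holds estimated counts: 90.95% are whole numbers and columns sum to different totals. How these estimated counts were made, and whether strand was used, is not given in the sources used here. They were rounded. With TMM scaling (edgeR 4.0.16, R 4.3.3), the quasi-likelihood test was fitted to all 9 mice, so the dapagliflozin-treated mice add to the estimate of spread, and *db/db* was compared with *db/m*. P-values were adjusted by Benjamini-Hochberg over 15583 genes. Genes without 0.3 CPM in 2 mice were left out. Standard errors come from the test's F value. Two-sided exact tests permuted mice.

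The members and gene lists were chosen with earlier results of these data known. Genes named were the 15 called genes with the smallest p in each direction, up to 4 called members per list and direction or else the member with the smallest p, the highest and lowest members, and the labelling, drug target and mutated genes. Others named were chosen after their values were seen. Of the distinct symbols, 23350 matched the GENCODE annotation of GRCm38 directly, 669 as older symbols and 400 not at all. Alternatives used limma 3.58.1 and DESeq2 1.42.0, other scalings and filters, left-out mice and a replicate block. A length correction, added after seeing the data, used the longest transcript of each gene. The test was checked on simulated data with known answers. The simulated counts took their spread from the same fit and held no length shift, so the check does not cover that shift. Intervals and floors of 3 counts cover counting error only. Some items are not reported here.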

Additional observations from a re-analysis of the deposited data

How the results depend on the processing

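Of 70 called genes that the naming rule took, 42 were called in each of the 6 fits without 1 mouse, and 28 lost the call in at least 1. None of these 70, nor of 13 named genes that were not called and were refitted in the same way, changed sign under any alternative run. The highest and lowest members of the lists were not followed one by one. Without 1 mouse the number of called genes was 85 (without *db/m* mouse 1) to 230 (without *db/db* mouse 3), with 30 to 108 higher and 55 to 154 lower. It was 126 without *db/m* mouse 3 and 113 without *db/db* mouse 2. DESeq2 called 363 genes, 184 higher and 179 lower, and included 190 of the 194. The 6 mice alone gave 115 genes, 41 of them higher. Scaling to total counts gave 141 higher and 93 lower against 85 and 109, with the median of all genes moved from 0.02 to 0.125 on the log2 scale. The length correction, chosen after seeing the data, gave 196 genes, 158 of them among the 194. The other alternatives (2 scalings, 2 filters, limma with 2 pseudocounts, voom weights) gave 187 to 262 genes.

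Replicate numbers did not pair the *db/m* and *db/db* mice: the deviations of same-numbered mice correlated at -0.131, -0.238 and -0.323. Between *db/db* and dapagliflozin-treated mice these correlations were 0.402, -0.159 and 0.563, and between *db/m* and dapagliflozin-treated mice -0.098, 0.221 and -0.173. Whether a shared batch lies behind them was not tested. With a replicate block 185 genes were called, 72 higher and 113 lower, and 165 of them were among the 194. The smallest *db/db* library, at 2733314 counts, sets a floor of 1.02 CPM for 3 counts, and 7 called genes had means under 5 CPM in both groups. Of the called genes, 38 overlap another tested gene.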

Other observations

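Of 4 called steroid and retinoid oxidoreductases outside the lists, picked after their values were seen, 3 fell and 1 rose, which says nothing of the class. Akr1c14, a 3α-hydroxysteroid dehydrogenase, was at 167.6, 107.1 and 110.3 CPM in *db/m* and at 9.52, 13.6 and 29.6 CPM in *db/db* mice (log2 fold change -2.82; adjusted p = 0.00884). Hsd17b2, which inactivates sex steroids, was at 9.61, 11.9 and 13.3 against 1.02, 0.20 and 1.77 CPM (adjusted p = 0.0132), and Adh1, an alcohol and retinol dehydrogenase, at 465.7, 557.4 and 604.6 against 145.5, 236.1 and 140.8 CPM (adjusted p = 0.0132). Akr1c13 went the other way, from 10.1, 11.5 and 7.77 to 18.4, 25.2 and 30.8 CPM (adjusted p = 0.0318). The groups did not overlap for any of these 4 genes.

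Some transcripts of secreted plasma proteins, also picked after their values were seen, rose and others fell. Apob, of lipoprotein particles, was at 152.8, 218.4 and 81.9 CPM in *db/m* and at 635.2, 289.7 and 397 CPM in *db/db* mice (adjusted p = 0.0755), and Gc, the vitamin D binding protein, at 14.7, 16.8 and 14.4 against 45.5, 36.8 and 45.6 CPM (adjusted p = 0.0315). Sepp1, the selenium carrier, was at 2954, 3546 and 2568 CPM in *db/m* and at 1195, 844.7 and 871.1 CPM in *db/db* mice (adjusted p = 0.0125). Azgp1, a lipid-mobilising glycoprotein, was at 140.8, 121.3 and 120.6 against 10.9, 21.8 and 39.0 CPM (adjusted p = 0.0131), and Pzp, a protease inhibitor, at 75.9, 69.6 and 48.0 against 0.68, 5.20 and 19.3 CPM (adjusted p = 0.0841). Nox4, the NADPH oxidase of the tubule, rose from 459.4, 393.8 and 397 to 982.6, 830.7 and 699 CPM (adjusted p = 0.0645).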
